A study of Mus musculus with 59 samples.

Results

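Among 59 single mouse cells labelled chemical-induced neurons, 24 carried transcripts of the GABA machinery only and 26 carried transcripts of both the GABA and the vesicular glutamate machinery. These 50 cells, chosen by the measured FPKM of 6 genes, are described here gene by gene. GABA-only cells had any of Gad1, Gad2 and Slc32a1 at an FPKM of 1 or more and none of Slc17a7, Slc17a6 and Slc17a8 at that level. Dual cells had at least 1 gene of each set at that level. FPKM is the number of sequenced fragments per kilobase of transcript, scaled to the depth of the cell. The remaining 9 cells passed for neither set, and 0 cells passed for the Slc17a set alone. The levels of these 6 genes chose the classes, so they are a description and support nothing.

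The study is on turning astrocytes into neurons with chemicals in the living brain. All cells carry the same label and an age label of 12 weeks, each was sampled in the brain with a patch pipette, and no untreated or control cells were analysed here. No animal is named, so the 59 cells were treated as 1 sample: differences between the classes have no replicate check, and no p-value was computed. The labels give neither the chemicals nor the brain region of a cell.

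GABA and glutamate are the main inhibitory and excitatory transmitters of the brain. Gad1 and Gad2 encode the enzymes that make GABA from glutamate, and Slc32a1 encodes the transporter that loads GABA into synaptic vesicles. Slc17a7, Slc17a6 and Slc17a8 encode the vesicular glutamate transporters, of which the first is typical of cortex and hippocampus and the second of thalamus and brainstem. Striatal projection neurons and interneurons use GABA, and some neurons of the brain carry both sets.

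GABA-only cells were 40.7% of all cells (exact Clopper-Pearson 95% interval 28.1 to 54.3%) and dual cells 44.1% (31.2 to 57.6%). Cells with neither set were 15.3% (7.22 to 27.0%). The 0 of 59 glutamate-only cells allow a share of up to 6.06% by the same kind of interval. The share is up to 5.08% when 3 cells are taken as the limit of a count of 0. These intervals and limits cover counting error over cells only.

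The dual class was carried mainly by Slc17a7. It was detected, which here always means an FPKM of 1 or more, in 20 dual cells, Slc17a6 in 11 and Slc17a8 in 2. Slc17a7 lies on chromosome 7 (45163949 to 45176142, GRCm38) and Slc17a6 on the same chromosome (51622006 to 51671119). Slc17a7 without Slc17a6 was found in 15 dual cells, Slc17a6 without Slc17a7 in 6, and both in 5. In the 26 dual cells the summed Slc17a level had a lowest value of 1.30, a median of 9.11 and a highest value of 147 FPKM.

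The levels of the GABA genes overlapped between the classes. Their summed level had a median of 53.3 FPKM in GABA-only cells (4.27 to 1507) and 36.0 FPKM in dual cells (3.53 to 1217), so the ranges were nearly the same. Gad1 was detected in 21 of 24 GABA-only and 25 of 26 dual cells, with medians of 25.0 and 16.9 FPKM. Gad2 was detected in 22 and 23 cells, with medians of 17.4 and 19.6 FPKM. The vesicular GABA transporter gene Slc32a1 was found in 11 cells of each class, and all 3 GABA genes together in 10 cells of each.

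In most dual cells the GABA side was the stronger one. The summed GABA genes exceeded the summed Slc17a genes in 20 of 26 dual cells, and by at least 10 times in 10 of them. The Slc17a sum was the higher one in the other 6 cells, whose GABA sums lay between 3.53 and 18.1 FPKM.

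**Figure D1:**
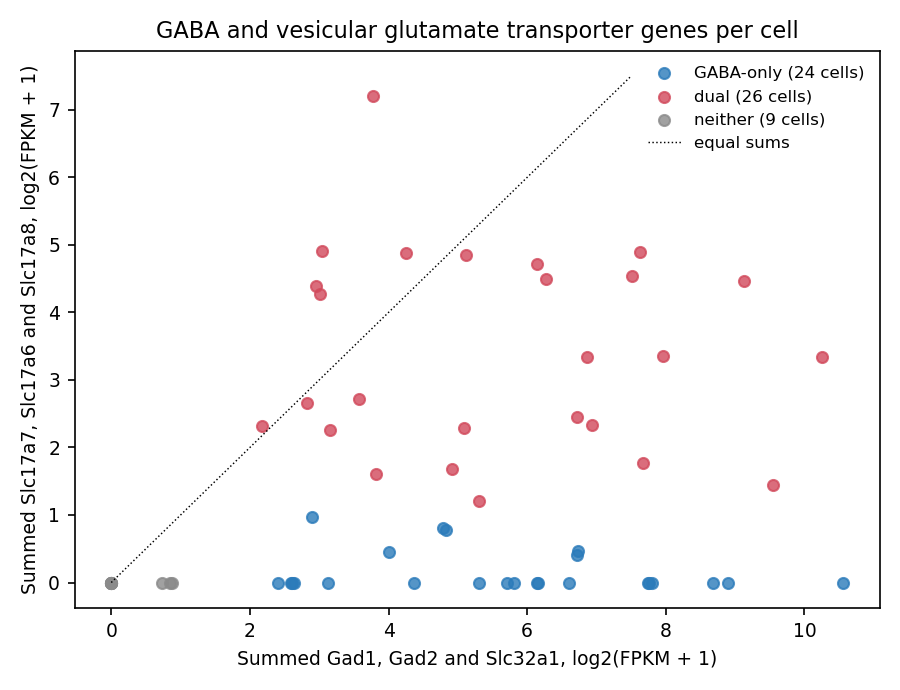
Summed Slc17a7, Slc17a6 and Slc17a8 against summed Gad1, Gad2 and Slc32a1 in each of the 59 cells, both as log2(FPKM + 1), with the class by colour and a dotted line where both sums are equal. In 20 of the 26 dual cells the point lies below the line, and GABA-only cells lie near the bottom by the rule that chose them.

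The border between the classes ran through low values. The dual cells just inside had their highest Slc17a gene at 1.00 FPKM (5 fragments of that gene, estimated from the spacing of the deposited values), 1.31 FPKM (8 fragments), 1.73 FPKM (11 fragments) and 2.06 FPKM (9 fragments). The GABA-only cells just outside had 0.967 FPKM (3 fragments), 0.743 FPKM (2 fragments), 0.711 FPKM (1 fragment) and 0.388 FPKM (2 fragments). Over all dual cells the Slc17a genes rested on a median of 22 fragments, from 3 to 246, with 5 cells under 10. In 18 of 24 GABA-only cells no Slc17a fragment was seen, and the remaining 6 had 1 to 3. The GABA genes rested on a median of 182 fragments in GABA-only cells (2 to 18700) and 253.5 in dual cells (3 to 11559). The libraries have no molecular identifiers, so fragments are not independent molecules, and a 0 shows only that no fragment was seen at that depth.

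More genes were detected in dual than in GABA-only cells. The lowest, median and highest numbers were 1491, 4824 and 10306 genes in dual cells and 906, 3664.5 and 8549 genes in GABA-only cells. Estimated depth moved the same way, with medians of 1003560 fragments in dual cells (58070 to 2413980) and 727212 in GABA-only cells (29043 to 2950400). Spike-in RNA held a median of 2.48% of the summed FPKM of genes and spike-ins in dual cells and 4.50% in GABA-only cells. Mitochondrial genes held 8.15% and 7.70% of the summed FPKM of genes alone. The 9 cells with neither set had a median of 2174 genes. Since passing a fixed threshold is easier in a cell with many detected genes, the differences called adjusted below take the number of genes detected into account. Detection counts, medians per class and list levels are not adjusted. How far that number itself set the classes was not tested.

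**Figure D2:**
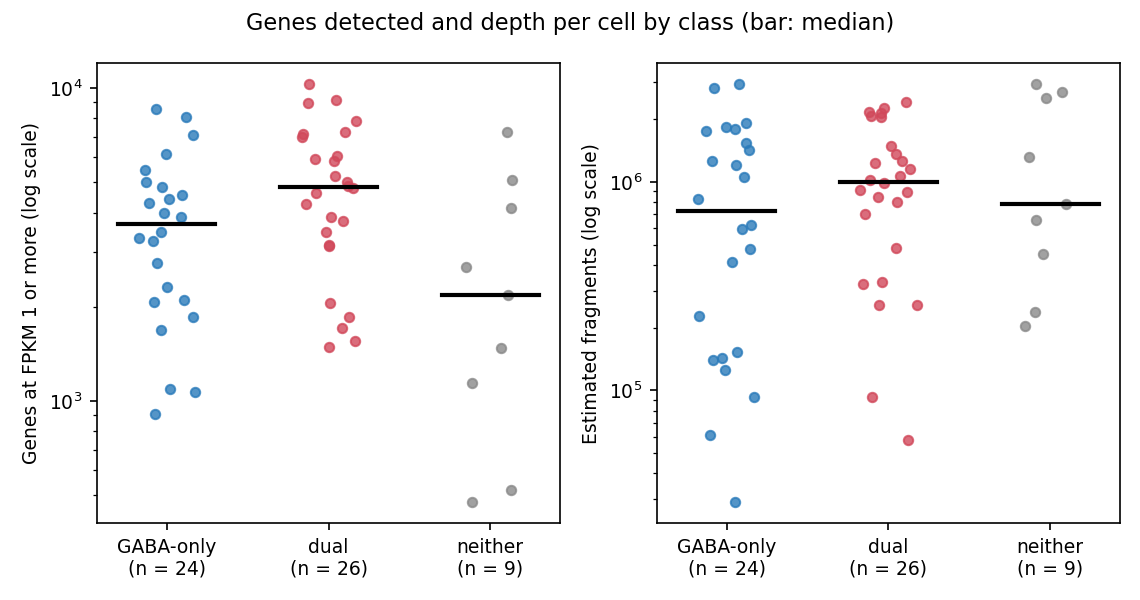
Genes at an FPKM of 1 or more (left) and estimated fragments (right) in each cell of the 3 classes, on log axes, with the median as a bar. Dual cells had a median of 4824 genes and GABA-only cells 3664.5, and the classes overlap over most of their range.

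Across genes, about as many were past a fixed fold in each direction once genes detected were taken into account. For each of 7474 genes detected in at least 12 of the 50 cells, the adjusted difference is the dual minus GABA-only difference in mean log2(FPKM + 1) at equal numbers of genes detected. A difference of 1 or more in size is called past the fold. 296 genes (3.96%) were past the fold in the direction of dual cells and 317 (4.24%) in the direction of GABA-only cells, 613 (8.2%) in all. The median adjusted difference was -0.03, with quartiles of -0.38 and 0.33. For comparison, the median SD of a gene over cells around the fit was 1.86, so differences of 1 are smaller than the spread between single cells of 1 class.

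The direction of these counts depended on the adjustment. Without it, 943 genes (12.6%) were past the fold towards dual cells and 37 (0.495%) towards GABA-only cells, and the median difference over all genes was 0.36. With the number of estimated fragments as the covariate instead, the counts were 578 and 97, and the median 0.20. Within 3 strata of genes detected they were 486 and 154. Of the 296 genes, 296, 293 and 293 were also past the fold in these alternatives, against 37, 97 and 154 of the 317. Levels rose with genes detected for 7408 of the genes compared, and dual cells had the higher median of genes detected. A weaker adjustment thus moved most genes towards dual cells, which favours the 296 in this overlap. With other classes or cells fewer of the 296 stayed. It was 118 with the class rule at any FPKM above 0 and 163 at an FPKM of 5 (162 and 130 of the 317). It was 161 in cells with 1782 to 6799.9 genes and 222 in cells with at least 2000 (185 and 257 of the 317). The genes to compare were chosen anew by detection in each of these settings. They numbered 7742 and 6847 with the class rules at any FPKM above 0 and at 5. In the 2 choices of cells they numbered 4151 and 7279, against 7474 with the main settings. A gene no longer compared counts as not staying, whatever its difference, so these overlaps do not show how many differences were lost. The strata hold cells with 906 to 3150, 3249 to 5011 and 5019 to 10306 genes, with 9 GABA-only and 7 dual cells, 9 and 8, and 6 and 11.

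Direction was the same in all 3 strata for 224 of the 296 genes and 182 of the 317, beside 1720 of all 7474 genes (23.0%). The same values chose and counted these genes, so their shares are a description. Leaving out each of the 50 cells in turn, 120 of the 296 and 148 of the 317 were past the fold every time.

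Genes of glutamatergic neurons were on balance at higher levels in dual cells. The list holds 25 genes of excitatory forebrain neurons without the rule genes. Of the 18 past the filter, 6 were past the fold towards dual cells (background 3.96% of all genes) and 0 towards GABA-only cells (background 4.24%). Nptx2 (1 GABA-only and 11 dual cells), Neurod6 (3 and 11) and Rasgrf2 (4 and 15) passed the filter mainly through dual cells. A difference was thus built into their passing. The median adjusted difference of the 18 was 0.67, against -0.03 over all genes, and 13 of the 18 were above 0. Over all 25 members, without a filter, 6 were past the fold towards dual cells and the median was 0.43. With a pseudocount of 10, 0 genes were past the fold and the median was 0.27, and with the class rule at an FPKM of 5 it was 8 of 15 genes and 1.27. With the filter it lay between 0.31 and 0.88 when each cell was left out in turn. By stratum the list median was 0.15, 1.11 and 0.94, so it was smallest in the cells with the fewest genes.

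Rasgrf2, a Ras and Rac exchange factor of upper-layer cortical neurons, had the largest difference of the list. It was detected in 4 of 24 GABA-only cells, with a lowest, median and highest level of 0, 0 and 14.0 FPKM. In dual cells it was detected in 15 of 26, at 0, 2.81 and 43.1 FPKM. The adjusted difference was 1.63, and it was 1.42, 1.77 and 1.71 in the 3 strata.

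Camk2a, the alpha subunit of the calcium and calmodulin-dependent kinase of excitatory synapses, was detected in 17 GABA-only cells at 0, 12.8 and 389 FPKM. It was detected in 24 dual cells at 0, 35.2 and 400 FPKM. The adjusted difference was 1.22, and the highest cells of both classes were at nearly the same level. Neurod6, a transcription factor of cortical excitatory neurons, was detected in 3 and 11 cells, with a highest level of 51.8 and 106 FPKM. Its adjusted difference was 1.18 overall but -0.64 in the stratum with the fewest genes.

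The other members past the fold were Nptx2 (1.09), Nptx1 (1.00) and Slc1a2 (1.11). Nptx1 and Nptx2 encode neuronal pentraxins, secreted proteins that cluster AMPA receptors, and Nptx2 was detected in 1 GABA-only and 11 dual cells. Slc1a2 encodes the main glutamate uptake transporter, which astrocytes express strongly, and it also stands in the astrocyte list. These 3 genes fall outside the rule for named genes and were named after their values were seen. The lowest adjusted differences of the list were those of Slc30a3 (-0.51), the vesicular zinc transporter of excitatory terminals, and Baiap2 (-0.46), a postsynaptic scaffold protein.

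Astrocyte genes were on balance at higher levels in dual cells as well. Of the 20 astrocyte genes past the filter, of 21 in the list, 9 were past the fold towards dual cells (background 3.96%) and 0 towards GABA-only cells. The list median was 0.86, with a range of 0.71 to 1.05 over the left-out cells. It was 0.49 with the class rule at an FPKM of 5 (5 genes towards dual and 1 towards GABA-only cells) and 0.47 with a pseudocount of 10 (4 genes towards dual cells). By stratum the list median was 0.24, 0.30 and 2.10, so most of the difference lay in the cells with the most genes. The mean log2(FPKM + 1) over the 21 genes had a lowest, median and highest value of 0.53, 2.39 and 4.69 in GABA-only and of 0.52, 3.40 and 7.85 in dual cells.

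Ntsr2, a neurotensin receptor gene of astrocytes, was detected in 7 GABA-only and 15 dual cells, with medians of 0 and 10.9 FPKM and highest levels of 192 and 1909 FPKM. The adjusted difference was 2.19. Gjb6, which encodes the astrocyte gap junction protein connexin 30, was detected in 2 and 11 cells and had an adjusted difference of 2.16. The water channel gene Aqp4 was also detected in 2 and 11 cells, with an adjusted difference of 1.65. Such genes pass the filter mainly through dual cells, so a difference was built into their passing.

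Apoe, a lipid carrier, was detected in nearly every cell, 21 of 24 and 25 of 26, with medians of 781 and 1346 FPKM. Its adjusted difference was 1.83, but -0.56 in the middle stratum. Slc1a3, an astrocyte glutamate transporter gene, had an adjusted difference of 1.28 and likewise went the other way in the middle stratum (-0.91). The remaining members past the fold were Clu (1.71), a secreted chaperone, Mlc1 (1.18), a membrane protein of astrocyte endfeet, the astrocyte transcription factor gene Sox9 (1.17) and Slc1a2, already given. Clu, Mlc1 and Sox9 are named outside the rule, after their values were seen. Mlc1 was detected in 4 GABA-only and 12 dual cells and so passed the filter mainly through dual cells. Gfap, the intermediate filament of astrocytes, had an adjusted difference of 0.40.

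The 5 defining astrocyte genes (Gfap, Aqp4, Aldh1l1, Slc1a3 and Gja1) were summed in each cell. The sum had a median of 19.4 FPKM in GABA-only cells (0 to 366) and 54.7 FPKM in dual cells (0 to 1240). All 5 were at 0 or under an FPKM of 1 in 6 GABA-only and 3 dual cells, and all 5 were detected in 0 and 4 cells. When the astrocyte list was added as a second covariate, 5 glutamatergic genes were past the fold towards dual cells and the glutamatergic median was 0.66. This alternative was chosen after the data were seen, and the part of astrocyte RNA in the glutamatergic differences was not tested.

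**Figure D3:**
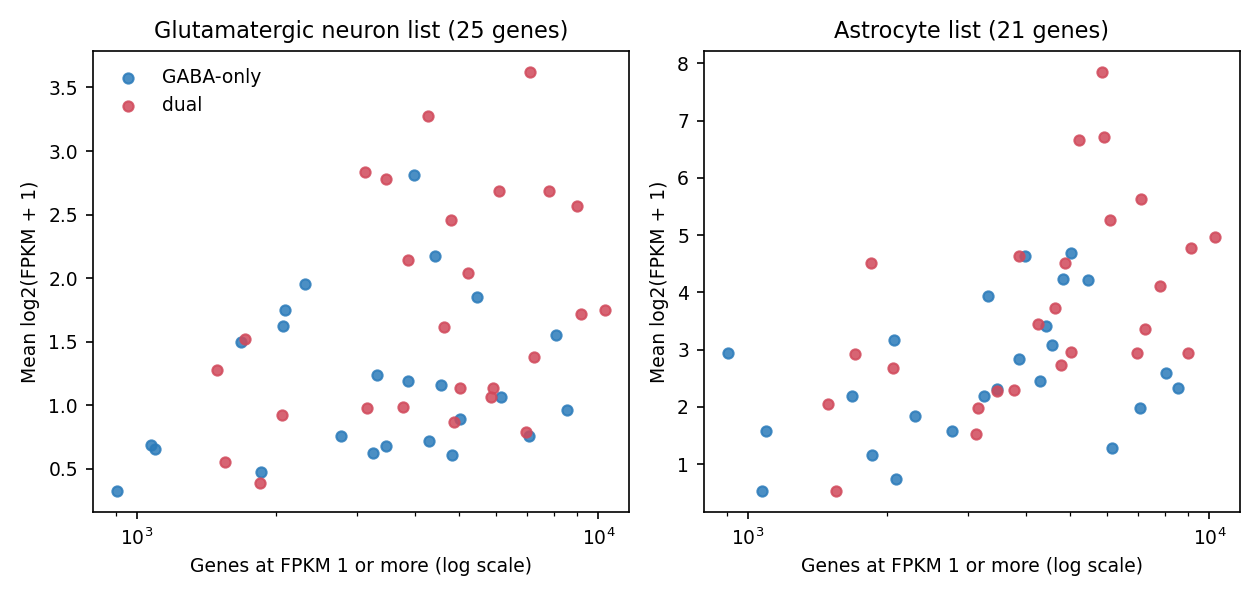
Mean log2(FPKM + 1) of the glutamatergic neuron list (25 genes, left) and the astrocyte list (21 genes, right) against genes at an FPKM of 1 or more on a log axis, 1 point per cell. Dual cells reach 3.62 on the glutamatergic list and 7.85 on the astrocyte list, GABA-only cells 2.81 and 4.69, and the classes overlap over the lower part of both ranges.

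Oligodendrocyte genes were plentiful in both classes. The mean log2(FPKM + 1) over the list had a lowest, median and highest value of 0.68, 3.14 and 9.24 in GABA-only cells and of 0.79, 5.45 and 9.56 in dual cells. Of the 17 list genes, 5 were past the fold towards dual cells (background 3.96%) and 0 towards GABA-only cells (4.24%), with a list median of 0.30. The list median turned to -0.69 with the class rule at an FPKM of 5 and to -0.32 in the 17 GABA-only and 16 dual cells with similar numbers of genes (1782 to 6799.9). With the class rule at any FPKM above 0 it was 1.29, with 11 of 17 genes past the fold towards dual cells. The largest of the 5 was Car2 (1.70), the cytosolic carbonic anhydrase of these cells, followed by Cnp (1.16) and Cldn11 (1.10), a myelin enzyme and a tight junction protein. Opalin (1.07) and Apod (1.06), named outside the rule, completed the 5. The part of oligodendrocyte RNA in the other differences was not tested.

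Microglia genes were present in most cells of both classes. Of 16 genes, 0 were past the fold in either direction (background 8.2%), and the median was 0.01. Without the covariate 6 were past the fold towards dual cells (median 0.74), and within strata 4 (0.47). Towards GABA-only cells it was 3 with the class rule at an FPKM of 5 (-0.55) and 3 of 13 in the cells with similar numbers of genes (-0.63). By stratum the list median was 1.34, -1.52 and 1.66. The 6 defining genes summed to a median of 281 FPKM in GABA-only cells (0 to 11478) and 494 FPKM in dual cells (0 to 7572), with none detected in 6 and 3 cells. Defining endothelial and mural genes were not detected in 20 of 24 and 19 of 26 cells, and genes of other organs in 23 and 20.

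General neuronal genes were plentiful in both classes. The 6 defining neuronal genes summed to a median of 529 FPKM in GABA-only cells (0 to 1954) and 438 FPKM in dual cells (45.3 to 1888). None was detected in 1 GABA-only cell, which goes against its label, and in 0 dual cells. Of the 27 pan-neuronal genes, 2 were past the fold towards dual cells (background 3.96%) and 1 towards GABA-only cells (4.24%), so the shares were near the background, and the median was 0.34. In the cells with similar numbers of genes, 8 of 27 were past the fold towards dual cells, with a median of 0.47. The 2 were Elavl4 (1.17), a neuronal RNA-binding protein, and Nefl (1.07), the light neurofilament chain. The long non-coding RNA Snhg11 (-1.05) was the 1. Snap25, a vesicle fusion gene, was detected in 22 and 26 cells with medians of 216 and 170 FPKM and an adjusted difference of 0.13.

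Synapse and channel genes were compared list by list, beside a background of 8.2% of all genes past the fold in either direction. Past the fold were 0 of 21 presynaptic genes (median 0.19), 0 of 13 glutamate receptor genes (0.01), 0 of 10 GABA receptor genes (0.14), 0 of 8 sodium channel genes (0.21) and 0 of 9 calcium channel genes (-0.04). The presynaptic count depended on the setting: 6 of 17 were past the fold towards dual cells in the cells with similar numbers of genes, 5 of 21 without the covariate and 4 of 21 with a pseudocount of 0.1. Among 13 postsynaptic genes Camk2a was higher in dual cells and Gphn, the scaffold gene of inhibitory synapses, in GABA-only cells (-1.23). Gphn was detected in 11 and 12 cells, with highest levels of 94.1 and 25.7 FPKM. Among 13 potassium channel genes Kcna2, an axonal channel, was past the fold towards dual cells (1.21), detected in 8 and 17 cells. Receptor genes for both transmitters were thus within the fold, which does not show that they were equal.

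With the main settings, genes of GABA neurons outside the rule had at most 1 member per list past the fold in each direction. Of 12 other genes of GABA metabolism and GABA neurons past the filter, 1 was past the fold towards dual cells (background 3.96%) and 0 towards GABA-only cells (4.24%), with a median of -0.03. The 1 was the neuropeptide Y gene Npy (1.22), detected in 11 and 16 cells with highest levels of 152 and 748 FPKM. Of 17 striatal projection genes, Gng7 (1.14), a G protein subunit, was past the fold towards dual cells and Pde1b (-1.11), a phosphodiesterase, towards GABA-only cells, with a median of 0.04. Sst, the somatostatin gene, was detected in 14 and 20 cells with an adjusted difference of 0.95. Of 8 genes of interneuron peptides and calcium-binding proteins, 1 (Npy) was past the fold towards dual cells, with a median of 0.09. With the class rule at any FPKM above 0 it was 6 of 8 (median 1.15). At an FPKM of 5 it was 3 of 8 (0.84). For the striatal genes these settings gave 3 of 18 towards dual cells (0.50) and 1 of 17 in each direction (-0.41).

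Some GABA neuron genes below the filter, or within the fold, are given for completeness; they were named after their values were seen. The striatal receptors Drd1 and Drd2 were detected in 5 and 3 GABA-only cells and in 6 and 2 dual cells. Dlx1, Dlx2 and Dlx5, transcription factors of GABA neuron development, were detected in 4, 3 and 4 GABA-only cells and in 7, 1 and 4 dual cells. Ppp1r1b, which encodes the striatal phosphoprotein DARPP-32, was detected in 16 of 24 and 23 of 26 cells with an adjusted difference of 0.29. The enkephalin gene Penk (0.32) and the transcription factor gene Meis2 (-0.55) were each detected in 15 and 19 cells.

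A few cortical and other neuronal genes were detected in dual cells and in no GABA-only cell, again named after their values were seen. These were Fezf2 in 4 dual cells and Emx2 in 3, transcription factors of cortical excitatory neurons or their progenitors, Nxph4, a neurexophilin, in 4 and the interneuron peptide gene Vip in 5. The pattern was not particular to neuronal genes. From the lists of other cell types, Ccdc153 was detected in 8 dual cells, Col1a2 and Cxcl10 in 5 each and Cd44 in 4. Each of these was detected in 0 GABA-only cells. By the same limit of 3 cells, 0 of 24 allows a share of up to 12.5% of GABA-only cells. Of all genes detected in 5 of the 50 cells, as Vip was, 5.76% were in no GABA-only cell and 0 were in no dual cell. For genes detected in 4 cells, as Fezf2 and Nxph4 were, the shares were 14.0% and 1.16%. For genes detected in 3 cells, as Emx2 was, they were 24.2% and 3.71%. Among genes detected in 3 to 11 cells the shares were 8.26% and 0.892%, and dual cells held 61.6% of the detections. Fezf2 and Nxph4 stand in the list of cortical layer genes. Of its 8 members past the filter, 0 were past the fold in either direction (background 8.2%), with a median of 0.34. In cells with at least 2000 genes 2 were past the fold towards dual cells. Some members below the filter were detected in both classes, such as Cux2 (3 and 3 cells) and Rprm (4 and 5).

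**Figure D4:**
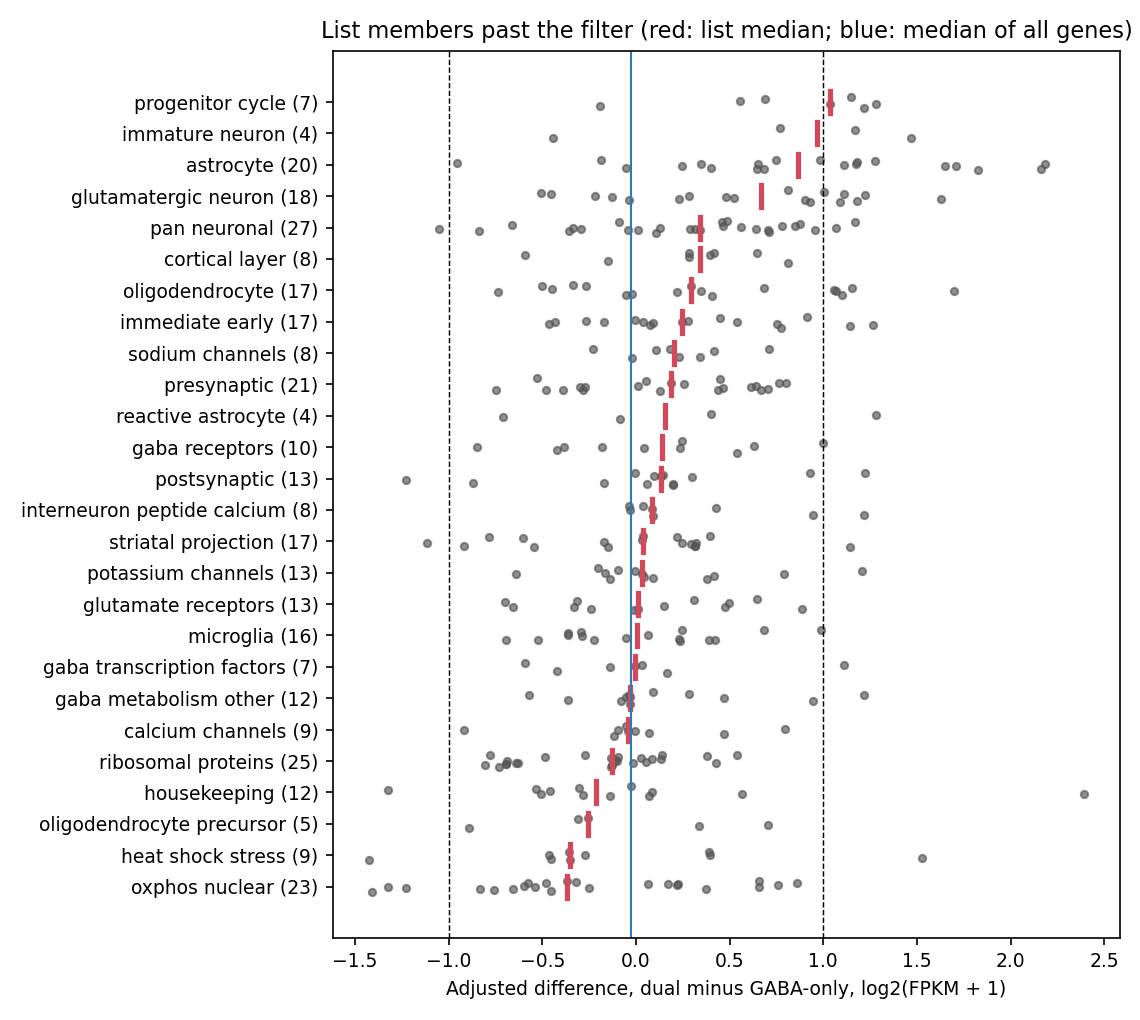
Adjusted difference, dual minus GABA-only, of each list member that passed the filter, by list and ordered by list median, on the log2(FPKM + 1) scale. Dashed lines mark the fold of 1 and -1, red marks the list medians (0.86 for astrocyte, 0.67 for glutamatergic neuron genes) and the blue line the median of all genes (-0.03).

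Among all genes, the 15 with the largest differences towards dual cells, of those with the same direction in all 3 strata, were led by Fbxo2, Trnp1, Nrn1, Ntsr2 and Gjb6. Fbxo2, which encodes a ubiquitin ligase subunit that binds glycoproteins and is abundant in neurons, came first. It was detected in 6 of 24 GABA-only cells (25.0%) at a lowest, median and highest level of 0, 0 and 127 FPKM. In dual cells it was detected in 19 of 26 (73.1%) at 0, 61.7 and 241 FPKM. Fbxo2 was chosen for its difference in these same cells, so the shares are a description, and they are not adjusted. The adjusted difference was 3.01, with 1.70, 4.66 and 2.82 in the strata and 2.73 to 3.29 over the left-out cells. The classes overlap at 0 and at the upper end.

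Trnp1, a nuclear protein known from cortical progenitors and neurons, was detected in 4 and 18 cells with medians of 0 and 11.3 FPKM and highest levels of 77.2 and 187 FPKM. Its adjusted difference was 2.30, and it passed the filter mainly through dual cells. Nrn1, which encodes neuritin, a membrane-anchored protein that promotes neurite growth and is induced by activity, was detected in 9 and 18 cells with medians of 0 and 13.9 FPKM. Its difference was 2.27 and nearly the same in the 3 strata (2.37, 2.60 and 2.39). Rasgrp1, a Ras exchange factor of forebrain neurons, was detected in 10 and 23 cells with medians of 0.421 and 15.1 FPKM and an adjusted difference of 2.10.

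The transcription factor genes Bhlhe40 (2.05) and Cebpd (2.00) and the early response gene Ier3 (2.04) followed. In the 3 strata Ier3 was detected in 0, 2 and 0 GABA-only cells and in 2, 5 and 8 dual cells. It thus passed the filter mainly through dual cells. Cebpd differed by 4.24, 0.02 and 2.02 in the strata, so its difference was nearly absent in the middle one. Pam16 (2.00), a part of the mitochondrial import motor, Fxyd7 (1.92), a sodium pump regulator of neurons, B3gat3 (1.80), an enzyme of proteoglycan synthesis, and Plcb4 (1.73), a phospholipase C, were detected in 6 to 9 GABA-only and 18 to 21 dual cells. Fam49a (1.73) and the gene model Gm23935 (2.01) completed the 15. In the 9 cells with neither set, Fbxo2 was detected in 2, Trnp1 in 1, and Nrn1 and Rasgrp1 in 0.

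The 15 genes furthest towards GABA-only cells were led by Chmp5 and Dld. Chmp5, a subunit of the membrane-remodelling ESCRT machinery, was detected in 19 GABA-only cells at 0, 43.3 and 310 FPKM (lowest, median, highest) and in 16 dual cells at 0, 28.0 and 138 FPKM. Its adjusted difference was -2.25, against -1.22 without the adjustment. Dld, a mitochondrial dehydrogenase subunit shared by the pyruvate and oxoglutarate dehydrogenase complexes, was detected in 20 GABA-only cells at 0, 29.7 and 1140 FPKM and in 14 dual cells at 0, 4.10 and 125 FPKM. Its adjusted difference was -2.24, with -3.26, -1.43 and -1.98 in the strata. The classes overlapped for both genes.

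Ndufa1 (-1.97), a subunit of respiratory complex I, P4hb (-1.90), a protein disulfide isomerase, Sugt1 (-1.92), a co-chaperone, and Atp6v1g1 (-1.81), a proton pump subunit, were detected in 18 to 22 GABA-only and 16 to 23 dual cells. Smu1 (-1.88) acts in splicing, Rexo2 (-1.86) degrades short RNAs, and Thumpd1 (-1.81) takes part in tRNA modification. Bcap31 (-1.86), Rab18 (-1.85) and Necap2 (-1.84) act in membrane traffic, and BC005624 (-2.03), Leprotl1 (-1.98) and Anp32b (-1.96) were the others. Differences of these 15 before adjustment ran from -1.83 to -0.69, so part of each adjusted value came from the adjustment for genes detected.

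**Figure D5:**
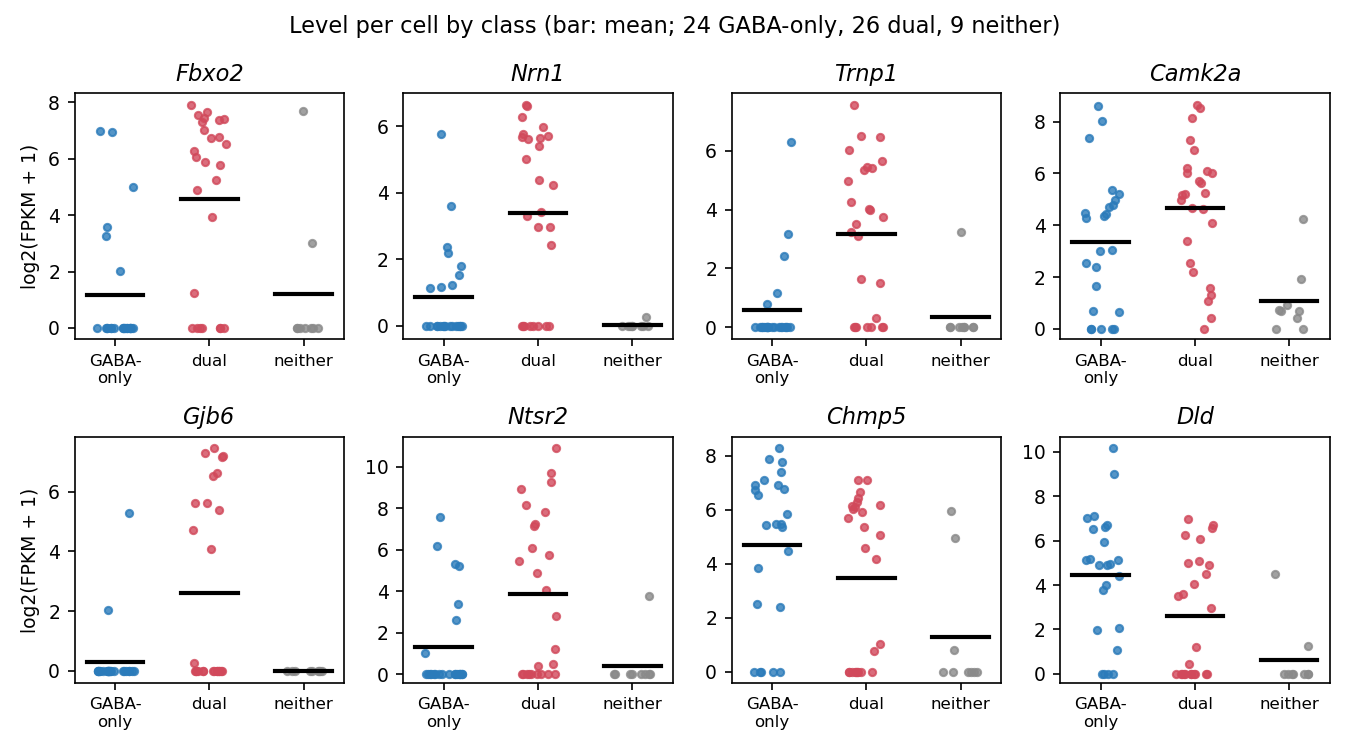
Level of 8 genes in each cell as log2(FPKM + 1), by class, with the mean as a bar; the 8 were chosen after their values were seen. Fbxo2, Nrn1, Trnp1, Gjb6 and Ntsr2 are under an FPKM of 1 in most GABA-only cells and high in many dual cells, Camk2a differs less, and Chmp5 and Dld lean towards GABA-only cells.

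Genes of energy metabolism had members past the fold in that direction too. Of 23 nuclear genes of oxidative phosphorylation, 3 were past the fold towards GABA-only cells (background 4.24%) and 0 towards dual cells, with a median of -0.37. The median turned to 0.21 without the covariate, to 0.06 in cells with at least 2000 genes, to 0.25 in the cells with similar numbers of genes and to 0.02 with the rule at an FPKM of 5. They were the respiratory complex II subunits Sdha (-1.33) and Sdhb (-1.41) and the cytochrome oxidase subunit Cox8a (-1.23). Cox8a was detected in all 24 GABA-only and in 24 dual cells, with medians of 766 and 648 FPKM, and its difference was 0.055 when cells under 2000 genes were left out. Of 25 ribosomal protein genes 0 were past the fold (median -0.13), and of 9 heat shock genes Hspb1 (1.53) was higher in dual and Hspd1 (-1.43), a mitochondrial chaperone, in GABA-only cells. Hspb1 was detected in 3 GABA-only and 11 dual cells and so passed the filter mainly through dual cells.

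Of 17 immediate early genes, 2 were past the fold towards dual cells (background 3.96%), Fos (1.27) and Nr4a1 (1.14), and 0 towards GABA-only cells. The list median was 0.25, and it was 0.04 in the cells with similar numbers of genes and -0.01 with GABA-only cells without Slc17a fragments against dual cells with at least 10, a setting chosen after the data were seen. Fos was detected in 22 GABA-only cells at 0, 594 and 14816 FPKM and in all 26 dual cells at 151, 1302 and 25153 FPKM. Its difference was 3.15, 0.65 and 0.28 in the strata. B2m, the light chain of MHC class I, which stands in the housekeeping list, was detected in 17 and 26 cells with medians of 63.6 and 396 FPKM. The adjusted difference of B2m was 2.39, but -0.12 in the middle stratum.

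Of 7 progenitor and cell cycle genes past the filter, of 15 in the list, 4 were past the fold towards dual cells (background 3.96%): Vim (1.28), Id3 (1.22), Id1 (1.15) and Sox2 (1.04). Vim (2 and 11 cells), Id1 (3 and 10) and Sox2 (4 and 12) passed the filter mainly through dual cells, and the list median was 1.04 with the filter and 0.13 over 14 genes without it. In cells with at least 2000 genes the number past the fold was 1, and with the rule at any FPKM above 0 it was 0. Astrocytes also express all 4 genes. With the astrocyte list as a second covariate, a setting chosen after the data were seen, 2 genes were past the fold and the median was 0.50. The part of astrocyte RNA in these differences was not tested. Of 4 immature neuron genes past the filter, of 13 measured, Cd24a (1.47) and Elavl4 were past the fold. Cd24a, a cell surface glycoprotein, was detected in 1 GABA-only and 11 dual cells and so passed the filter mainly through dual cells. The migrating-neuron gene Dcx, below the filter and named after its values were seen, was detected in 3 cells of each class.

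Dual cells differed among themselves by which transporter gene they carried. The mean log2(FPKM + 1) of the glutamatergic list had a median of 1.62 in the 15 cells with Slc17a7 alone, 1.00 in the 6 with Slc17a6 alone and 2.57 in the 5 with both. The corresponding value in GABA-only cells was 1.02. Their median numbers of genes detected were 4264, 5392 and 7245, and these levels are not adjusted for them. Camk2a had medians of 35.9, 4.23 and 67.2 FPKM in the 3 kinds of dual cell and 12.8 FPKM in GABA-only cells. Nrgn, a calmodulin-binding protein of excitatory neurons, had medians of 143, 9.71 and 266 FPKM, and 29.9 FPKM in GABA-only cells. Nptx1 was detected in 6 of 15, 1 of 6 and 5 of 5 of these cells.

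The astrocyte list ran otherwise, with medians of 2.74, 4.52 and 4.12 in the cells with Slc17a7 alone, Slc17a6 alone and both. The pan-neuronal list had medians of 5.21, 4.00 and 5.79. This split was made after the data were seen, its groups hold 5 to 15 cells, and the ranges overlapped: the glutamatergic values ran from 0.55 to 3.28, from 0.39 to 1.72 and from 1.38 to 3.62.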

How the data were processed

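The data are 1 table of FPKM values deposited by the authors for 59 single-cell libraries, with 20689 genes and 51 ERCC spike-ins. Per the submitters' processing notes, STAR 2.5.3a, featureCounts 1.5.3 and GRCm38 were used. The sources used here do not state the annotation, the strand setting or how reads with several matches were counted, so values of overlapping, antisense and near-identical genes are uncertain. Gene positions and exon lengths came from GENCODE M21 (19358 genes, 93.6%).

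Fragments were estimated from the spacing of FPKM times exon length within a cell: a median of 73.3% of values up to 20 fragments (63.9 to 79.9%) were whole within 0.02. Because the rest were not, no count model was used. Estimated depth was 29043 to 2950400 fragments per cell.

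Classes followed the rule at an FPKM of 1. For each gene detected in at least 12 of the 50 cells, without spike-ins and the 6 rule genes, log2(FPKM + 1) was regressed by least squares on class and log2 of the genes detected (Python 3.11.15, numpy 2.4.6, pandas 2.3.3, scipy 1.17.1). The scale understates differences of low genes. The cells are 1 sample, so no test was made. The script was tested on simulated data.

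The rule for named genes takes up to 3 list members in each direction, the defining markers, and the 15 genes furthest in each direction with 1 sign in all 3 strata of genes detected. The members and the 33 gene lists (451 of 463 genes in the table) were chosen with earlier results of these data known, and some genes stand in more than 1 list. Some genes that this rule takes, and values that rest on them, are left out and not reported here. Alternatives changed the covariate, the threshold, the pseudocount, the scaling, the filter and the cells; 4 were added after the data were seen.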

Additional observations from a re-analysis of the deposited data

How the results depend on the processing

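The counts of 296 genes past the fold towards dual cells and 317 towards GABA-only cells moved to 943 and 37 without a covariate, 486 and 154 within 3 strata, 955 and 952 with a pseudocount of 0.1, 19 and 19 with a pseudocount of 10, and 465 and 586 with each cell rescaled to 1000000. They were 517 and 485 with the class rule at an FPKM of 5, which left 14 dual cells. With estimated fragments as covariate they were 578 and 97, and with GABA-only cells without Slc17a fragments (18) against dual cells with at least 10 (21) they were 467 and 502, both added after the data were seen. The median over all genes was 0.36 without a covariate and 0.20 with fragments. Beyond these, 4 named genes changed sign: Cox8a (0.055) in cells with at least 2000 genes, Cnp (-0.58) and Cldn11 (-0.47) with the rule at an FPKM of 5, and Id3 (-0.0090) with the rule at any FPKM above 0. Leaving out each cell in turn gave 285 to 326 and 297 to 348 genes. The progenitor list had no member past the filter in the 17 GABA-only and 16 dual cells with similar numbers of genes, so it gave no value there. The causes were not tested. No paired analysis was possible because the cells form 1 labelled group and the result comes from no test. Depth limits the classes: 5 dual cells rest on fewer than 10 Slc17a fragments. The GABA side rests on as few as 2 fragments in GABA-only cells and 3 in dual cells.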
